A study of Homo sapiens with 26 samples.

Results

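Cereblon, the ligase scaffold it sits on and the Ikaros family were measured as 7 genes, CRBN, DDB1, CUL4A, CUL4B, IKZF1, IKZF2 and IKZF3, in 26 human B-cell cancer cell lines. The genes were chosen by name, with earlier results of these data known, and are 7 of the 19775 genes with a probe-set of their own. Every probe-set annotated to exactly 1 of them was taken, which gave 26 of the 54613 non-control probe-sets of the array: 2 for CRBN, 1 for DDB1, 4 for CUL4A, 4 for CUL4B, 9 for IKZF1, 3 for IKZF2 and 3 for IKZF3. Probe-sets that listed a member together with another gene numbered 0.

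The study set gene expression of untreated cell lines against their resistance to cyclophosphamide (C), doxorubicin (H) and vincristine (O), with mafosfamide in place of C because C needs activation in the liver. Each line had 1 Affymetrix HG-U133 Plus 2.0 array, and resistance was given as AUC0, the area under the positive part of a dose response curve corrected for growth, so that a higher AUC0 means a more resistant line. The 12 multiple myeloma (MM) lines were AMO-1, KMM-1, KMS-11, KMS-12-BM, KMS-12-PE, LP-1, MM1S, MOLP-8, NCI-H929, OPM-2, RPMI-8226 and U-266, of which AMO-1 is labelled plasmacytoma. The 14 diffuse large B-cell lymphoma (DLBCL) lines were DB, FARAGE, HBL-1, MC-116, NU-DHL-1, NU-DUL-1, OCI-Ly7, OCI-Ly3, RIVA, OCI-Ly19, SU-DHL-8, SU-DHL-5, SU-DHL-4 and U2932, of which MC-116 is labelled undifferentiated lymphoma. All were grown without drug before the arrays, 6 of the 12 MM lines and 9 of the 14 DLBCL lines in RPMI with 10% serum and the others with other serum shares or in IMDM. Every line is 1 culture with 1 array, so p-values measure the spread between lines, and no spread exists within a line.

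CRBN encodes cereblon, which brings proteins to a ubiquitin ligase built on a cullin, CUL4A or CUL4B, with DDB1 as the adaptor between cullin and receptor. Thalidomide, lenalidomide and pomalidomide bind cereblon and turn the ligase on the zinc finger transcription factors Ikaros (IKZF1) and Aiolos (IKZF3), and myeloma cells depend on both factors. Ikaros and Aiolos act throughout lymphocyte development, whereas their relative Helios (IKZF2) is best known from T cells. C, H and O act elsewhere, on DNA, topoisomerase and microtubules.

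The genes lie on chromosomes 3 (CRBN), 11 (DDB1), 13 (CUL4A), X (CUL4B), 7 (IKZF1), 2 (IKZF2) and 17 (IKZF3). RefSeq promoter windows on GRCh38.p14 were at hand for 6 of the 7 genes. The 250 bases before the first listed start of IKZF1 (chr7:50304466-50304715, plus strand) and of IKZF2 (chr2:213152457-213152706, minus strand) are shown because a probe-set of each had the largest differences between the diseases among the members. Capitals mark GGGAA, the core letters that Ikaros proteins bind, searched on both strands as GGGAA or TTCCC.
IKZF1: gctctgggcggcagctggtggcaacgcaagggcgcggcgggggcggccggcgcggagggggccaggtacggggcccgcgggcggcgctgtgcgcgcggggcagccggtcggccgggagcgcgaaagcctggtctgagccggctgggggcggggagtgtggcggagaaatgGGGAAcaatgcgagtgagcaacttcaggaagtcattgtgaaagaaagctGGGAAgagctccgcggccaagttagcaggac
IKZF2: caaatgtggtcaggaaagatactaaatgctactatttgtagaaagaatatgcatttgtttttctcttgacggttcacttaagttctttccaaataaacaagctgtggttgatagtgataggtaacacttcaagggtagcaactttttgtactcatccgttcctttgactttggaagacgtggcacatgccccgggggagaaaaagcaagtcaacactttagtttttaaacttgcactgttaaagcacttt
The IKZF1 window held GGGAA at positions 171 and 220, counted from 1 at the 5′ end, and was 71.2% G or C. The IKZF2 window held 0 matches and was 38.0% G or C. The 2 windows are placed unlike each other. That of IKZF1 lies inside the RefSeq span of the gene (chr7:50303455-50405101), and that of IKZF2 just outside its span (chr2:212999698-213152456). Of 35116 windows of this length, 59.0% held GGGAA or TTCCC, against 8 of the 16 windows of the members. A match is a string of letters and not a measured binding site.

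Before the members were compared, the labels were set against cell type markers. All 6 measured B cell markers were lower in MM lines, where the mean of the list in a line lay between 4.54 and 6.00 against 8.54 to 11.34 in DLBCL lines, among them PAX5, the factor that holds B cell identity, which averaged 4.42 ± 0.95 in MM lines and 11.01 ± 0.40 in DLBCL lines (log2 RMA value, SD, n = 12 and 14). Of 6 plasma cell markers 5 were higher in MM lines (list means from 8.55 to 12.10 in MM lines and from 5.74 to 9.50 in DLBCL lines), among them the plasma cell surface protein SDC1 at 10.24 ± 1.99 in MM lines and 5.77 ± 0.55 in DLBCL lines, and CD38 differed by -0.16 (limma adjusted p = 0.914). Of 7 T cell, 6 NK and cytotoxic and 5 myeloid markers 0 were called, and the mean of the T cell list in a line lay between 4.88 and 5.72 in MM lines and between 4.94 and 5.66 in DLBCL lines, near or below the median of all values, 5.68. The NK and cytotoxic list lay between 4.90 and 5.47 in MM lines and between 4.98 and 6.34 in DLBCL lines, and the myeloid list between 4.01 and 5.34 in MM lines and between 4.17 and 5.03 in DLBCL lines. At an unadjusted p under 0.05 the T cell list had 1 marker, the NK and cytotoxic list 1 and the myeloid list 2 in limma.

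For the comparison of MM with DLBCL, 9 of the 26 member probe-sets were called (limma over all 54613 probe-sets, Benjamini-Hochberg adjusted p under 0.05), and all 9 were lower in MM lines. Over the whole array 11.5% of the probe-sets were called and 5.87% were called lower in MM. The calls were 7 of the 9 probe-sets of IKZF1, 1 of 3 of IKZF2 and 1 of 4 of CUL4A, and CRBN, DDB1, CUL4B and IKZF3 had 0, also at an unadjusted p under 0.05. The median difference, MM minus DLBCL, was -0.42 on the log2 scale over the 26 probe-sets and -0.02 over all probe-sets, and 24 of the 26 lay below 0. Probe-sets of 1 gene share its locus and are not independent, and in RNA of a whole culture fewer expressing cells and less RNA per cell cannot be told apart. The B cell and plasma cell markers moved with the same contrast, and their part in these differences was not tested.

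**Figure D1:**
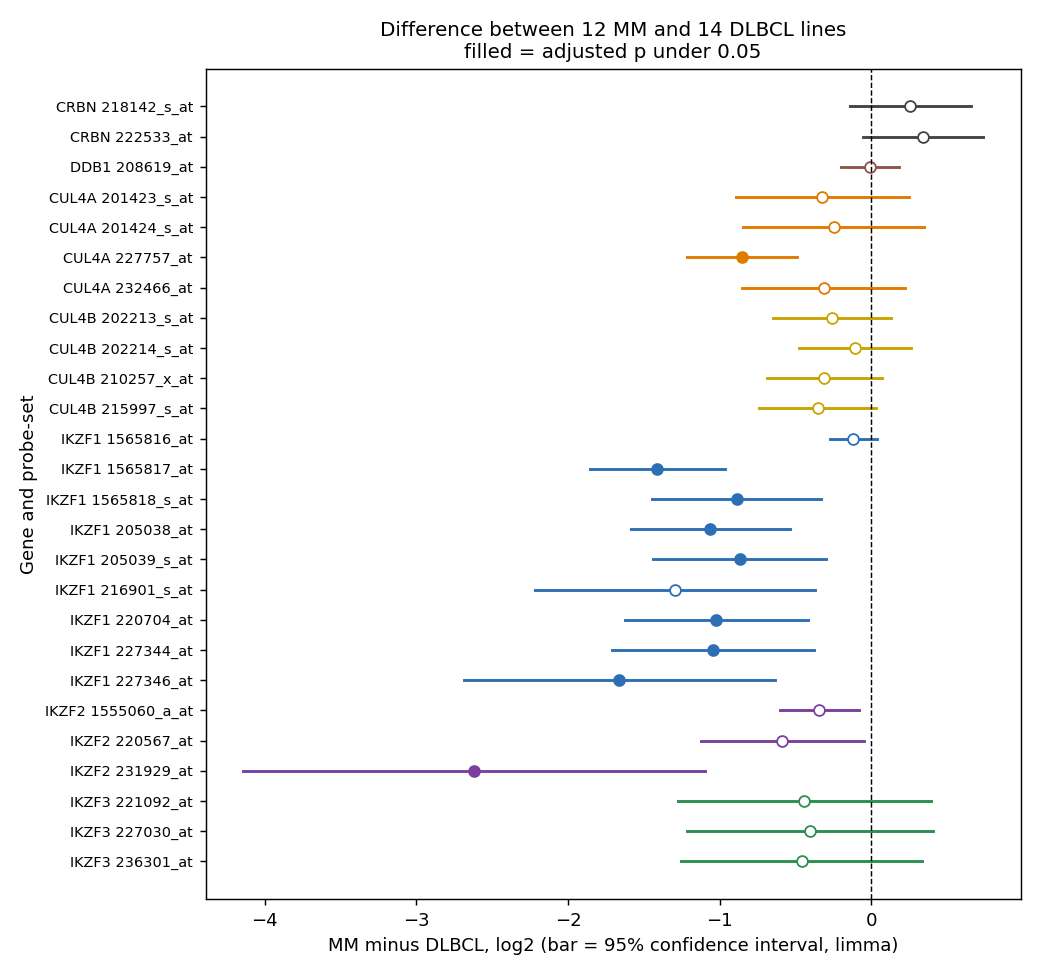
MM minus DLBCL difference in log2 RMA value for the 26 member probe-sets, with 95% confidence intervals from limma (12 MM and 14 DLBCL lines). Filled points passed an adjusted p of 0.05; 7 of the 9 IKZF1 probe-sets, IKZF2 231929_at and CUL4A 227757_at did, all left of 0.

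Cereblon, the receptor of the ligase, read above the median of all values, 5.68, in all 26 lines on both of its probe-sets. The CRBN probe-set 218142_s_at read in MM lines 7.68 in KMS-11, 9.02 in MM1S, 9.13 in OPM-2, 9.22 in KMS-12-PE, 9.23 in MOLP-8, 9.48 in KMM-1, 9.56 in RPMI-8226, 9.57 in AMO-1, 9.62 in NCI-H929, 9.69 in U-266, 9.81 in LP-1 and 10.04 in KMS-12-BM. In DLBCL lines it read 8.39 in HBL-1, 8.49 in FARAGE, 8.58 in MC-116, 8.66 in SU-DHL-4, 8.92 in SU-DHL-5, 9.03 in OCI-Ly7, 9.19 in RIVA, 9.25 in NU-DHL-1, 9.26 in OCI-Ly19, 9.32 in U2932, 9.42 in DB, 9.49 in NU-DUL-1, 9.49 in SU-DHL-8 and 9.66 in OCI-Ly3. KMS-11 stood lowest of all lines and the other MM lines lay within or just above the DLBCL range, so the groups overlapped over most of their range. The difference was 0.26 (SE 0.19, 95% confidence interval -0.14 to 0.65, limma adjusted p = 0.437), and 222533_at gave 0.34 (SE 0.19, -0.05 to 0.74, adjusted p = 0.272). KMS-11 was the lowest and KMS-12-BM the highest MM line on both CRBN probe-sets, and OCI-Ly3 was the highest DLBCL line on both.

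DDB1, the adaptor, varied least among the representative probe-sets, which are for each gene the probe-set that varied most among DLBCL lines. DDB1 208619_at had a lowest, median and highest value of 10.52, 10.82 and 11.62 in MM lines and of 10.49, 10.93 and 11.14 in DLBCL lines. The ranges overlapped almost entirely, and the difference was -0.01 (SE 0.09, 95% confidence interval -0.20 to 0.18, limma adjusted p = 0.958).

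CUL4A, the first of the cullins, gave different answers by probe-set. CUL4A 227757_at had a lowest, median and highest value of 5.66, 6.00 and 7.25 in MM lines and of 6.41, 7.18 and 7.55 in DLBCL lines. Of the 12 MM lines 8 lay below every DLBCL line, and KMS-12-BM, KMM-1 and KMS-12-PE were the MM lines farthest into the DLBCL range. The probe-set was 1.81-fold lower in MM lines (log2 difference -0.85, SE 0.18, limma adjusted p = 0.00181). The other 3 CUL4A probe-sets differed by -0.25 to -0.32 with adjusted p from 0.484 to 0.634. On those 3 probe-sets KMS-12-PE was the highest MM line and NCI-H929 the lowest, and 201424_s_at spanned 7.52 to 10.84 in MM lines against 8.04 to 10.06 in DLBCL lines.

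CUL4B, the X-linked cullin of the same ligase, was not called on any of its 4 probe-sets, which differed by -0.11 to -0.35 (limma adjusted p from 0.239 to 0.750). NCI-H929 was the lowest MM line and NU-DHL-1 the lowest DLBCL line on all 4. For 202214_s_at the lowest, median and highest values were 8.94, 9.54 and 10.24 in MM lines and 8.64, 9.62 and 10.72 in DLBCL lines.

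**Figure D2:**
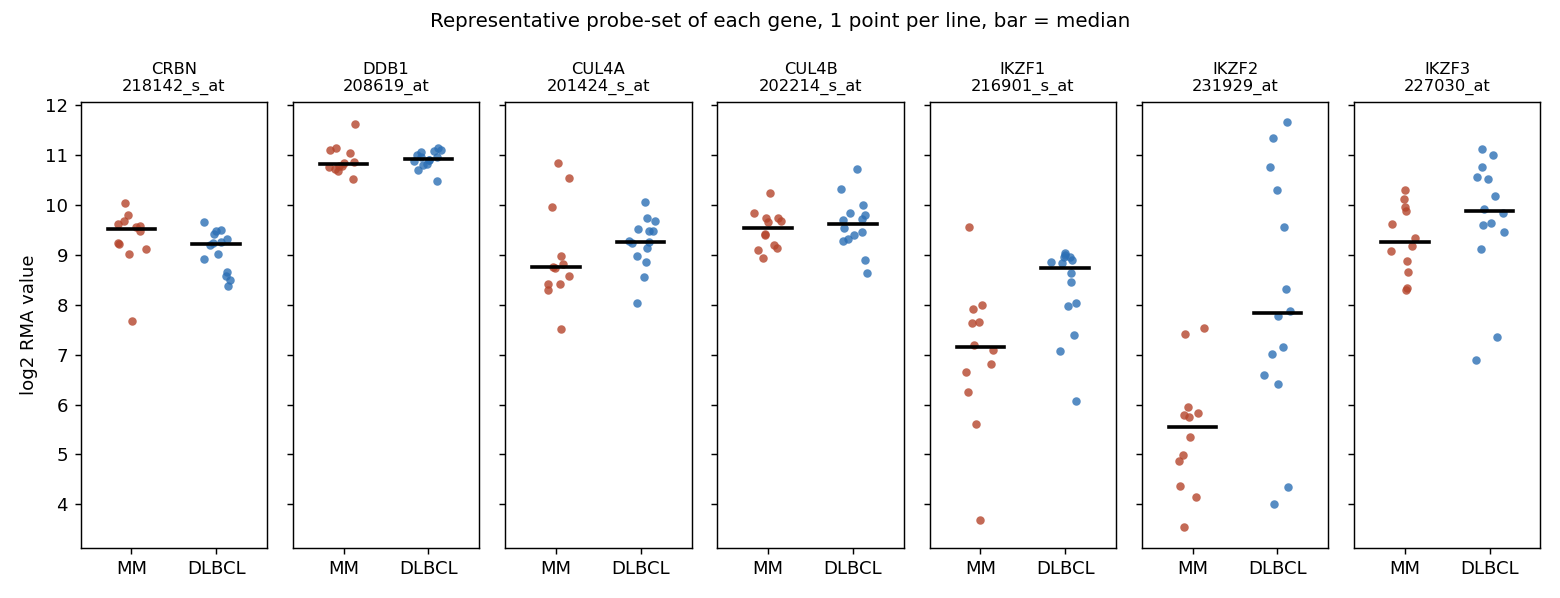
Log2 RMA value of the representative probe-set of each gene in MM lines (left, n = 12) and DLBCL lines (right, n = 14), with 1 point per line and a bar at the median. DDB1 is tight in both diseases while IKZF2 spans 3.54 to 7.54 in MM lines and 4.01 to 11.66 in DLBCL lines; values of different probe-sets are not comparable as levels.

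IKZF1, a target of the cereblon ligase under lenalidomide, was lower in MM lines than in DLBCL lines on most of its probe-sets. IKZF1 1565817_at read in MM lines 5.39 in U-266, 5.41 in RPMI-8226, 5.45 in KMS-12-PE, 5.50 in MOLP-8, 5.57 in KMM-1, 5.58 in NCI-H929, 5.94 in OPM-2, 6.02 in LP-1, 6.02 in KMS-11, 6.26 in MM1S, 6.34 in AMO-1 and 6.71 in KMS-12-BM. In DLBCL lines it read 5.77 in NU-DHL-1, 6.51 in OCI-Ly19, 6.78 in FARAGE, 7.09 in MC-116, 7.10 in NU-DUL-1, 7.14 in OCI-Ly3, 7.16 in RIVA, 7.23 in HBL-1, 7.42 in SU-DHL-4, 7.47 in OCI-Ly7, 7.71 in SU-DHL-5, 7.91 in U2932, 7.94 in SU-DHL-8 and 8.42 in DB. Apart from NU-DHL-1 and OCI-Ly19, every DLBCL line lay above every MM line, and 6 MM lines lay below every DLBCL line. The probe-set was lower in MM lines (log2 difference -1.41, SE 0.22, limma adjusted p = 8.68e-05), with 6 MM lines and 0 DLBCL lines below the median of all values.

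On IKZF1 227346_at the lowest, median and highest values were 4.15, 9.30 and 11.38 in MM lines and 8.15, 10.90 and 11.72 in DLBCL lines. KMM-1 stood far below the other MM lines there, and KMS-12-BM reached into the upper DLBCL range. The probe-set was 3.16-fold lower in MM lines (log2 difference -1.66, SE 0.50, limma adjusted p = 0.0299). With each line left out in turn the difference lay between -1.88 and -1.22, and the call held. Over the 6 MM and 9 DLBCL lines in RPMI with 10% serum the probe-set was not called, at -1.998 (adjusted p = 0.149). The probe-sets 205038_at, 220704_at and 227344_at, all called, were lower in MM lines by differences of -1.06, -1.02 and -1.04 with adjusted p of 0.00683, 0.0231 and 0.0353.

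IKZF1 205038_at had a lowest, median and highest value of 6.50, 8.26 and 10.15 in MM lines and of 8.19, 9.49 and 9.83 in DLBCL lines. IKZF1 220704_at had 4.40, 5.00 and 7.32 in MM lines and 4.54, 6.38 and 7.27 in DLBCL lines. It read below the median of all values in 11 MM lines and 3 DLBCL lines, so its difference is measured against low readings. IKZF1 227344_at had 5.63, 7.72 and 9.15 in MM lines and 6.71, 8.95 and 9.54 in DLBCL lines. On all 3 the groups overlapped, KMM-1 was the lowest MM line and KMS-12-BM the highest, and 11 of the 12 MM lines lay below the DLBCL median. The called probe-sets 1565818_s_at and 205039_s_at differed by -0.89 (SE 0.27, adjusted p = 0.0317) and by -0.87 (SE 0.28, adjusted p = 0.0414). The call of 205039_s_at was lost without any 1 of 18 of the 26 lines, that of 227344_at without any 1 of 11 and that of 1565818_s_at without KMM-1, MOLP-8 or RPMI-8226, with adjusted p of at most 0.0715. Over the 6 MM and 9 DLBCL lines in RPMI with 10% serum none of these 5 probe-sets was called. The differences there were -1.21 for 205038_at (limma adjusted p = 0.0652), -0.94 for 220704_at (0.116), -1.11 for 227344_at (0.216), -1.20 for 1565818_s_at (0.0585) and -0.94 for 205039_s_at (0.175).

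The representative probe-set of IKZF1, 216901_s_at, missed the threshold. In MM lines it read 3.70 in KMM-1, 5.61 in RPMI-8226, 6.25 in MOLP-8, 6.66 in NCI-H929, 6.80 in KMS-12-PE, 7.09 in U-266, 7.20 in LP-1, 7.63 in OPM-2, 7.66 in MM1S, 7.92 in AMO-1, 8.0 in KMS-11 and 9.56 in KMS-12-BM. In DLBCL lines it read 6.07 in NU-DHL-1, 7.08 in NU-DUL-1, 7.40 in OCI-Ly19, 7.97 in OCI-Ly7, 8.03 in DB, 8.46 in SU-DHL-5, 8.63 in SU-DHL-8, 8.84 in OCI-Ly3, 8.87 in U2932, 8.89 in RIVA, 8.95 in MC-116, 8.97 in HBL-1, 9.0 in SU-DHL-4 and 9.04 in FARAGE. The difference was -1.29 (SE 0.45, limma adjusted p = 0.0604), and it passed without KMS-12-BM (-1.53, adjusted p = 0.0166), without NU-DHL-1 (-1.47, adjusted p = 0.0255), without NU-DUL-1 (-1.39, adjusted p = 0.0479) or with dim probe-sets left out of the adjustment (adjusted p = 0.0430). The remaining probe-set, 1565816_at, exceeded the median of all values in 0 lines and differed by -0.12 (adjusted p = 0.355).

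The same lines stood at the ends across IKZF1 probe-sets. KMS-12-BM was the highest MM line on all 9 and above every DLBCL line on 5 of them, KMM-1 was the lowest MM line on 6, and NU-DHL-1 was the lowest DLBCL line on all 9. KMS-12-BM and KMS-12-PE are sister lines in the paper's list, so they are not fully independent, though the fits counted them as separate lines. On IKZF1 they lay far apart, with 9.56 against 6.80 on 216901_s_at. That gap of 2.75 was the widest of the 26 member probe-sets between these lines, whose median absolute difference was 0.63. This is the only gauge in the panel of how far related cultures differ, and neighbouring lines in an order cannot be told apart without repeated arrays.

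**Figure D3:**
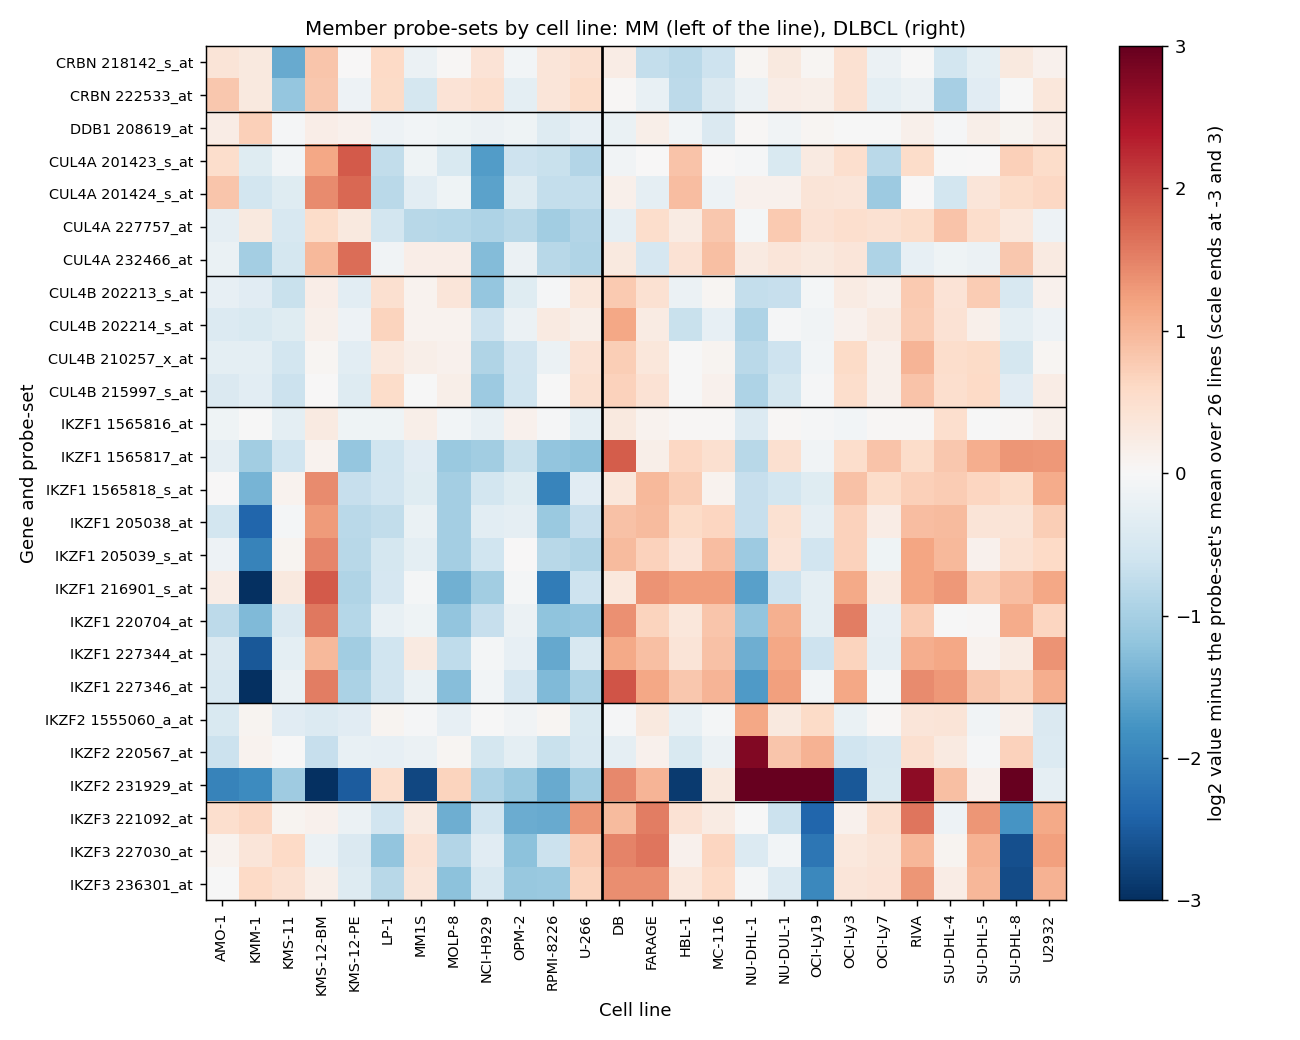
Log2 RMA value of each member probe-set in each line, minus the mean of the probe-set over the 26 lines (blue below, red above, colours end at -3 and 3), with MM lines left and DLBCL lines right of the black line. IKZF1 rows are mostly blue in MM lines except KMS-12-BM, NU-DHL-1 is blue for IKZF1 and red for IKZF2, and SU-DHL-8 and OCI-Ly19 are blue for IKZF3.

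IKZF2, encoding Helios, had the widest range among the representative probe-sets in DLBCL lines. IKZF2 231929_at read in MM lines 3.54 in KMS-12-BM, 4.15 in MM1S, 4.37 in KMS-12-PE, 4.88 in AMO-1, 4.98 in KMM-1, 5.36 in RPMI-8226, 5.76 in OPM-2, 5.80 in KMS-11, 5.83 in U-266, 5.94 in NCI-H929, 7.41 in LP-1 and 7.54 in MOLP-8. In DLBCL lines it read 4.01 in HBL-1, 4.34 in OCI-Ly3, 6.42 in OCI-Ly7, 6.60 in U2932, 7.01 in SU-DHL-5, 7.16 in MC-116, 7.79 in SU-DHL-4, 7.88 in FARAGE, 8.32 in DB, 9.55 in RIVA, 10.31 in SU-DHL-8, 10.77 in OCI-Ly19, 11.34 in NU-DHL-1 and 11.66 in NU-DUL-1. Of the DLBCL lines 8 lay above every MM line, while HBL-1 and OCI-Ly3 lay among the lower MM lines. The probe-set was lower in MM lines (log2 difference -2.62, SE 0.74, limma adjusted p = 0.0208). No fold is given, because 6 MM lines and 2 DLBCL lines read below the median of all values and the array table used here holds no detection calls. Over the 6 MM and 9 DLBCL lines in RPMI with 10% serum the call was lost at a difference of -2.98 (adjusted p = 0.0913).

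The other IKZF2 probe-sets were not called. IKZF2 1555060_a_at differed by -0.34 (SE 0.13, limma adjusted p = 0.0828) and 220567_at by -0.59 (SE 0.26, adjusted p = 0.152), and 220567_at exceeded the median of all values in 4 lines. NU-DHL-1, the lowest DLBCL line for IKZF1, was the highest of the DLBCL lines on both.

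IKZF3, encoding Aiolos, was not called on any of its 3 probe-sets. IKZF3 227030_at read in MM lines 8.29 in OPM-2, 8.34 in LP-1, 8.65 in MOLP-8, 8.87 in RPMI-8226, 9.09 in KMS-12-PE, 9.18 in NCI-H929, 9.35 in KMS-12-BM, 9.63 in AMO-1, 9.89 in KMM-1, 9.97 in MM1S, 10.13 in KMS-11 and 10.30 in U-266. In DLBCL lines it read 6.89 in SU-DHL-8, 7.35 in OCI-Ly19, 9.11 in NU-DHL-1, 9.45 in NU-DUL-1, 9.60 in SU-DHL-4, 9.64 in HBL-1, 9.84 in OCI-Ly3, 9.92 in OCI-Ly7, 10.18 in MC-116, 10.53 in RIVA, 10.56 in SU-DHL-5, 10.76 in U2932, 11.005 in DB and 11.13 in FARAGE. The DLBCL lines lay on both sides of the MM range, SU-DHL-8 and OCI-Ly19 below every MM line and 5 above. The difference was -0.40 (SE 0.39, 95% confidence interval -1.21 to 0.40, limma adjusted p = 0.557). Over the lines grown in RPMI with 10% serum it was 0.14 (SE 0.62, adjusted p = 0.929). The other 2 probe-sets differed by -0.44 and -0.46 (adjusted p of 0.530 and 0.489).

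Probe-sets of 1 gene followed each other to differing degrees within a disease. The median Pearson r between them was 0.93 in the 12 MM lines and 0.95 in the 14 DLBCL lines for IKZF3, and 0.92 in MM lines and 0.88 in DLBCL lines for CUL4B. For CRBN it was 0.92 in MM lines and 0.83 in DLBCL lines, and for IKZF1 0.82 in MM lines and 0.71 in DLBCL lines. For IKZF2 it was 0.27 in MM lines and 0.81 in DLBCL lines. Many IKZF2 readings were low. Below the median of all values were 12, 7 and 6 MM lines for 220567_at, 1555060_a_at and 231929_at, and 10, 5 and 2 DLBCL lines. For CUL4A the median r was 0.82 in MM lines and 0.20 in DLBCL lines, with a lowest pair at -0.40. In DLBCL lines 227757_at, the CUL4A probe-set called between the diseases, had r of -0.23, -0.40 and -0.11 with the others. Those had r from 0.50 to 0.78 with each other. In MM lines 227757_at had r from 0.54 to 0.77 with the others. These are descriptions over lines that share an array type.

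Between genes, the representative probe-sets of IKZF1 and IKZF2 had an r of -0.27 in the 12 MM lines and of -0.66 in the 14 DLBCL lines (rho -0.38 in MM lines and -0.50 in DLBCL lines), and those of CRBN and IKZF1 had -0.07 in MM lines and -0.42 in DLBCL lines. IKZF2 and CUL4A had -0.58 in MM lines and -0.07 in DLBCL lines. These 3 were picked from 21 pairs for their values and were not tested.

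The genes whose pattern was most like a member's over the 26 lines, after each probe-set was centred within its disease, were taken as the 3 of the highest Pearson r among 23291 probe-sets. For CUL4A they were TUBGCP3 (r = 0.93), PCID2 (0.89) and IPO5 (0.85), all on chromosome 13 like CUL4A, with 0 protein-coding genes between CUL4A and PCID2 and 7 between CUL4A and TUBGCP3. For CRBN they were ZNF493 (0.79), HACL1 (0.74) and SDR39U1 (0.73), and for DDB1 OXSR1 (0.81), RBM23 (0.78) and DDX54 (0.77). For IKZF1 they were INSIG1 (0.75), PARP11 (0.72) and RAP2A (0.65), for IKZF2 IKBKB (0.77), TMX4 (0.73) and VPS37B (0.72), for IKZF3 MED26 (0.80), POU2F2 (0.79) and GRB2 (0.77), and for CUL4B ZNF302 (0.76), TMCC1 (0.73) and USP30 (0.73).

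Of 72 other measured genes of the pathway 8 were called between the diseases, or 11.1%, close to the 12.2% of all genes. Each gene was read by its representative probe-set alone. Some of these averaged below the median of all values in both diseases, such as RAB28 (3.89 in MM lines and 3.80 in DLBCL lines). A gene not called there was not shown to be equal. Over the 19775 genes with a representative probe-set, 6.81% were called higher and 5.39% lower in MM lines, with a median difference of -0.01. Of 19 measured genes of the ligase core and its NEDD8 cycle 1 was called, the COP9 signalosome subunit COPS6, higher by 0.74 in MM lines (limma adjusted p = 0.00701), and the median difference of the list was -0.02. Of 22 other receptors of the ligase 3 were called, with a list median of -0.10. DCAF8 was higher by 0.91 (adjusted p = 0.0316) and DCAF6 by 0.57 (adjusted p = 0.0483) in MM lines, and DCAF12 was lower by a difference of -0.75 (adjusted p = 0.000975). Of 6 other cullins 0 were called in limma, also at an unadjusted p under 0.05, with a list median of -0.06.

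Among 21 measured substrates and partners of cereblon 3 were called, with a list median of 0.07. ZNF276, a zinc finger protein degraded with these drugs, was higher by 0.54 in MM lines (limma adjusted p = 0.0128), as was BSG, a chaperoned partner of cereblon, by 0.58 (adjusted p = 0.0160), whereas the transcription factor PATZ1 was lower by a difference of -0.61 (adjusted p = 0.0345). Neither of the remaining Ikaros genes was called, IKZF4 with a difference of 0.17 (adjusted p = 0.524) and IKZF5 with -0.39 (adjusted p = 0.201). Of the 2 genes downstream of Ikaros and Aiolos in myeloma, IRF4 averaged 12.40 ± 0.41 in MM lines and 9.79 ± 2.49 in DLBCL lines (SD, n = 12 and 14, difference 2.61, adjusted p = 0.0152), and MYC differed by 0.34 (adjusted p = 0.793).

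The relation of the members to drug resistance was then fitted within each disease as a limma slope, the change in log2 RMA value for each 100 units of AUC0. AUC0 was at hand in 12 MM and 12 DLBCL lines in the case of C and O, and in 12 MM and 14 DLBCL lines in the case of H. After adjustment over all probe-sets 0 member probe-sets passed in any of the 6 fits. The array as a whole passed in 0% of the probe-sets for C in MM and in DLBCL lines, 0.00183% for H in MM lines, 0% for H in DLBCL lines and 0% for O in MM and in DLBCL lines. Before adjustment 15 of 156 relations had p under 0.05, where the share of the whole array lay between 3.44% and 5.5% by fit. Of the 15, 10 were for C in DLBCL lines, 9 of them from IKZF1 alone.

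For C in DLBCL lines, 10 of the 26 member probe-sets had an unadjusted p under 0.05, where 4.95% of all probe-sets did. These were all 9 of IKZF1 and CUL4B 202214_s_at, all with positive slopes, so expression was higher in lines with a higher AUC0. The IKZF1 slopes ran from 0.20 to 1.01 log2 per 100 units over AUC0 values from 165 to 346. The smallest adjusted p of a member was 0.983, and without NU-DHL-1, the DLBCL line lowest in IKZF1 with an AUC0 of 172, the count was 4. It was 6 without DB and 17 without SU-DHL-5.

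Permutation p-values were computed only for relations picked by their unadjusted limma p in the same lines, so they are no separate support. IKZF1 205039_s_at had a slope of 0.79 (SE 0.21, 95% confidence interval 0.33 to 1.26), with Pearson r = 0.74 (permutation p = 0.00431) and rho = 0.84 (permutation p = 0.00105) over 12 DLBCL lines. Without SU-DHL-5 and NU-DHL-1, the lines farthest from the median AUC0, r was 0.69. IKZF1 205038_at gave r = 0.74 (permutation p = 0.00373), rho = 0.76 (permutation p = 0.00559) and an r of 0.75 without those lines. The representative probe-set 216901_s_at gave r = 0.56 (permutation p = 0.0559), rho = 0.55 (permutation p = 0.0700) and 0.51 without them. IKZF1 220704_at gave r = 0.63 (permutation p = 0.0272), rho = 0.62 (permutation p = 0.0371) and 0.42 without them, so its relation rested in part on those lines.

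The other 5 IKZF1 probe-sets had r from 0.57 to 0.73 in DLBCL lines (permutation p from 0.00165 to 0.0526) and rho from 0.49 to 0.83. CUL4B 202214_s_at had a slope of 0.57, with r = 0.61 (permutation p = 0.0358) and rho = 0.43 (permutation p = 0.163), and r was 0.61 without SU-DHL-5 and NU-DHL-1. Adjusted over all probe-sets by limma, each of these slopes had p = 0.983.

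In MM lines the IKZF1 slopes for C ran from -0.15 to 0.57, 6 of the 9 above 0, and 0 had an unadjusted p under 0.05. The difference between the slopes, MM minus DLBCL, was tested for every probe-set, and 0 members passed after adjustment. Before adjustment the dim probe-set IKZF1 1565816_at alone passed for C, 1 of 26 where 4.56% of the array did, with -0.35 (unadjusted p = 0.0157, adjusted p = 0.9997), so the slopes in the diseases were not shown to differ. For H 0 of 26 members passed before adjustment, where 5.12% of the array did.

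**Figure D4:**
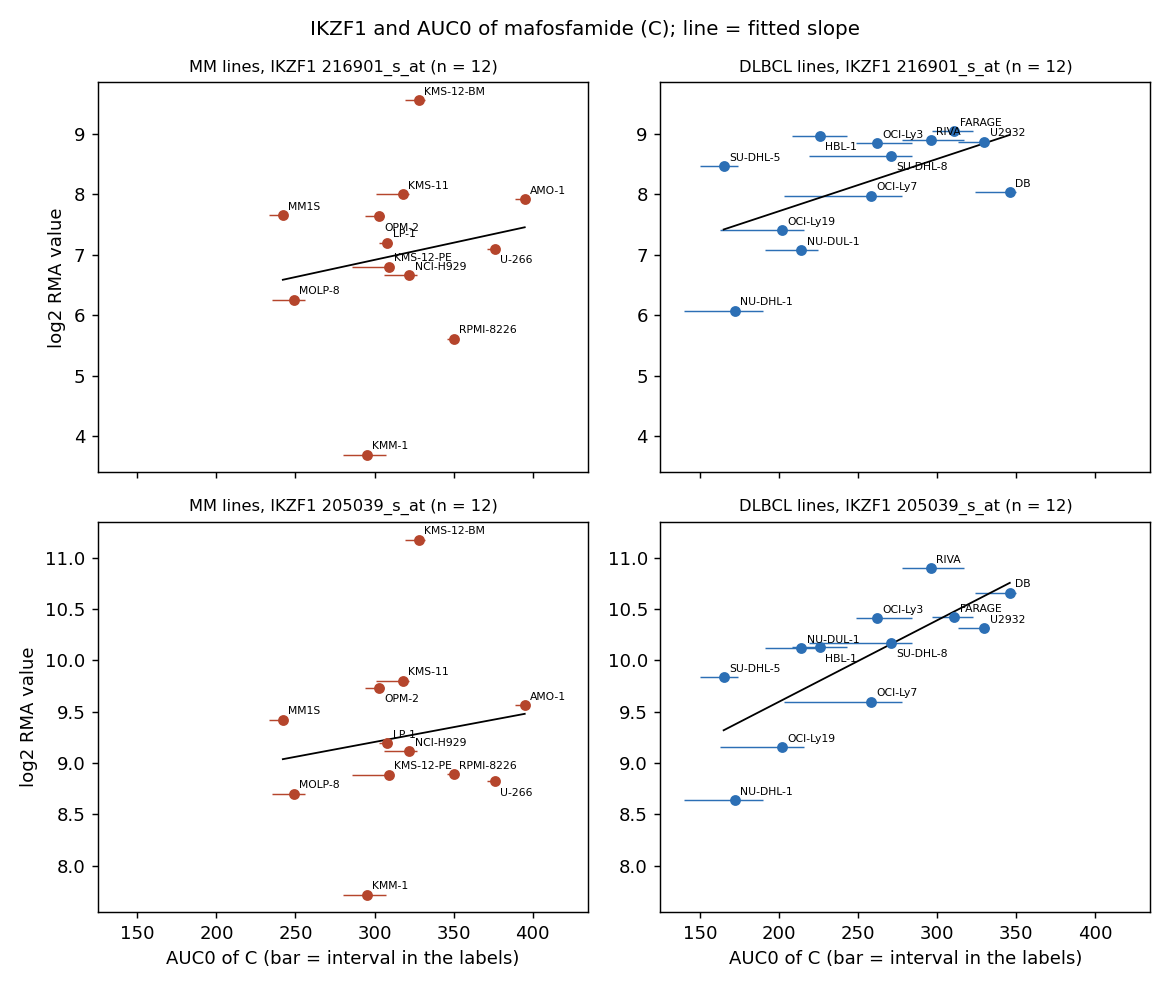
Log2 RMA value of IKZF1 216901_s_at (upper) and 205039_s_at (lower) against AUC0 of mafosfamide (C) in 12 MM lines (left) and 12 DLBCL lines (right), with the AUC0 interval given in the labels as a bar and the fitted slope as a line. In DLBCL lines NU-DHL-1 sits at the lower left with AUC0 172 and the points climb to the right (slopes 0.86 and 0.79), and in MM lines the slopes are 0.57 and 0.29 with KMM-1 lowest.

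For C in MM lines 1 member probe-set had an unadjusted p under 0.05, against 3.44% of the array. It was IKZF2 220567_at, with a slope of -0.46, r = -0.72 (permutation p = 0.00749) and rho = -0.78 (permutation p = 0.00442) over 12 MM lines, -0.72 also without AMO-1 and MM1S (limma adjusted p = 0.99998). This probe-set read below the median of all values in all 12 MM lines, from 4.37 to 5.15. IKZF2 231929_at had a slope of -0.42 (limma unadjusted p = 0.602).

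For H, 0 of the 26 had an unadjusted p under 0.05 in MM lines, against 4.17% of the array, and 2 had in DLBCL lines, against 5.5% of the array. These were IKZF1 205039_s_at with r = 0.52 (permutation p = 0.0544) and rho = 0.53 (permutation p = 0.0538), and IKZF2 220567_at with r = -0.50 (permutation p = 0.0570) and rho = -0.51 (permutation p = 0.0645), over 14 DLBCL lines, both with a limma adjusted p of 0.883. Without OCI-Ly19 and FARAGE, the lines farthest from the median AUC0, r was 0.53 and -0.53. NU-DHL-1, the highest DLBCL line on 220567_at at 7.82, was kept there. On that probe-set 10 DLBCL lines read below the median of all values. With each line left out in turn its slope lay between -1.12 and -0.52. All 9 IKZF1 slopes for H lay above 0 in DLBCL lines, from 0.16 to 0.70, and 3 of 9 did in MM lines. Since the probe-sets read 1 gene, these counts are not independent.

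For O, 1 member had an unadjusted p under 0.05 in MM lines, against 4.66% of the array, and 1 in DLBCL lines, against 4.3% of the array. In MM lines it was IKZF2 231929_at, with a slope of 2.69, r = 0.64 (permutation p = 0.0266) and rho = 0.54 (permutation p = 0.0762), and r was 0.16 without LP-1 and MOLP-8 (limma adjusted p = 0.982); NCI-H929 had the AUC0 of MOLP-8 and was kept. The relation was thus weak without LP-1 and MOLP-8, the 2 MM lines highest in IKZF2 and at AUC0 values of 187 and 149. With each line left out in turn the slope lay between 2.21 and 3.28. In DLBCL lines the member was IKZF1 1565817_at, with a slope of 1.33, r = 0.68 (permutation p = 0.0147) and rho = 0.73 (permutation p = 0.00964). Its r was 0.37 without DB and SU-DHL-8, so the relation rested in part on those lines (limma adjusted p = 0.990). The slope of 1565817_at in MM lines was -0.18, and the slopes differed by -1.52 (SE 0.64, unadjusted p = 0.0277, adjusted p = 0.99999), the 1 member of 26 to pass before adjustment where 4.02% of the array did.

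**Figure D5:**
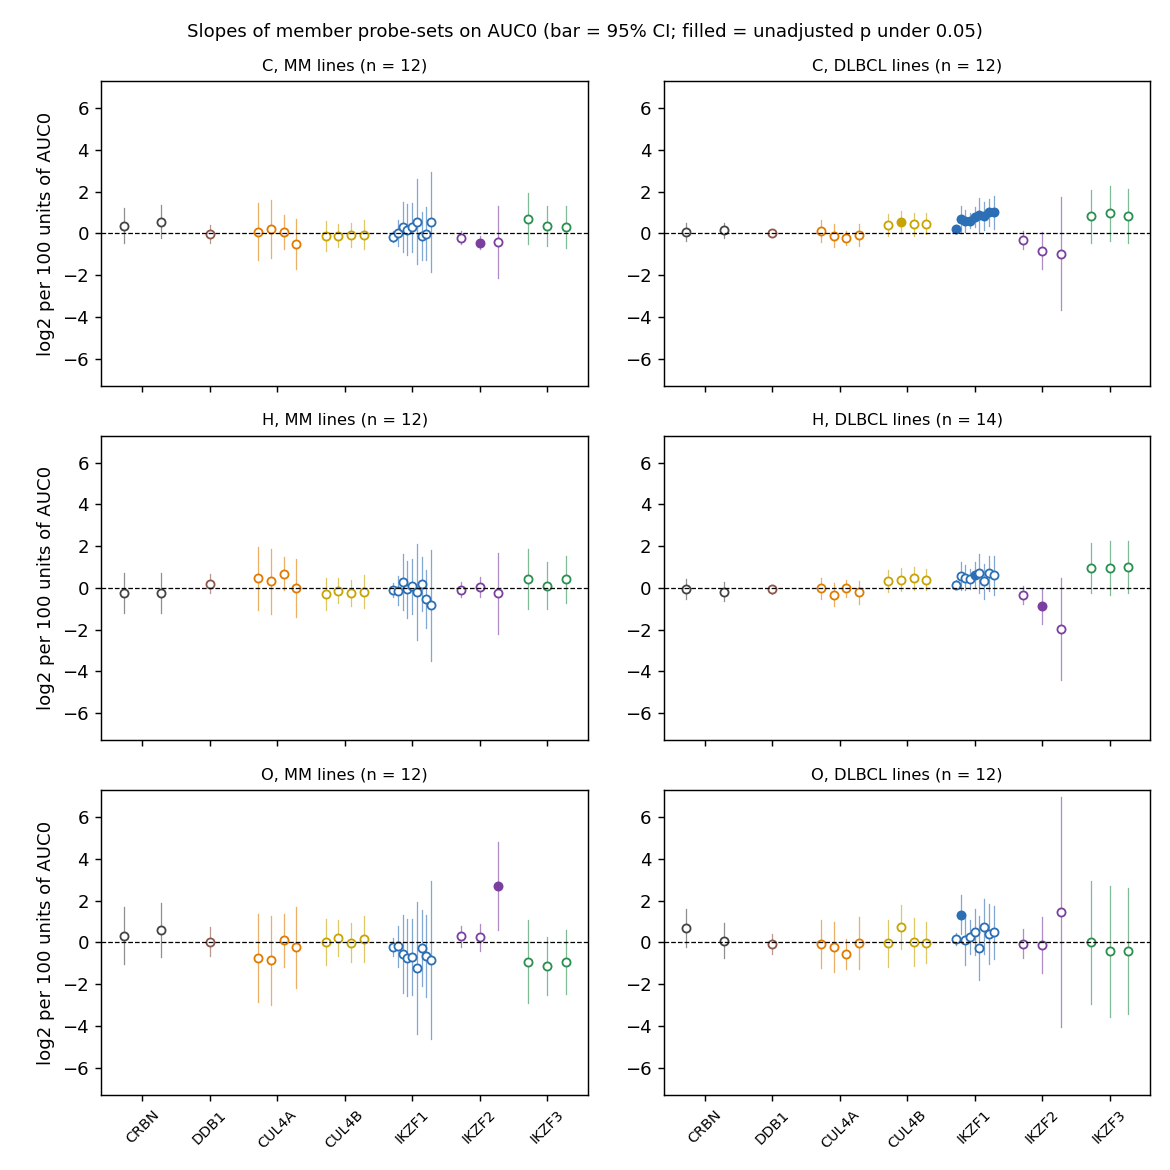
Slope of each member probe-set on AUC0, in log2 per 100 units with 95% confidence intervals, by drug (rows, C, H and O) in MM lines (left) and DLBCL lines (right), with genes along the axis. Filled points had an unadjusted p under 0.05, 10 of them for C in DLBCL lines, and 0 passed after adjustment.

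CRBN, the receptor, had no slope with an unadjusted p under 0.05 in any of the 6 fits. For C its slopes were 0.37 and 0.57 in MM lines and 0.07 and 0.15 in DLBCL lines. DDB1 slopes lay between -0.03 and 0.21 in MM lines and between -0.07 and -0.00055 in DLBCL lines over the 3 drugs. IKZF3 227030_at had slopes for C of 0.35 in MM lines and 0.96 in DLBCL lines, for H of 0.11 in MM lines and 0.97 in DLBCL lines, and for O of -1.13 in MM lines and -0.43 in DLBCL lines, all with intervals that include 0.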

How the data were processed

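Expression was measured with 1 Affymetrix HG-U133 Plus 2.0 array per untreated line (12 MM and 14 DLBCL), whose number sets the precision. The authors deposited log2 values after RMA (affy in R 3.0.1, per the labels); array batches and the set of arrays normalised together are not given in the sources used here, and the scanner files were not used. Values ranged from 2.41 to 15.09 with array medians from 5.65 to 5.72. Probe-sets took their symbols from the platform annotation, updated through RefSeq gene IDs, and 62 control probe-sets were left out. AUC0 came from the labels.

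Differences and slopes per 100 units of AUC0 were fitted on all 54613 probe-sets (R 4.3.3, limma 3.58.1), without covariates, adjusted by Benjamini-Hochberg, with a threshold of 0.05. Correlations with AUC0 have two-sided permutation p-values from 100000 resamples (Python 3.11.15, scipy 1.17.1, numpy 2.4.6). These were computed only where the limma slope had an unadjusted p under 0.05 in the same lines. They are not adjusted and are no separate support. The fits were also run on simulated data with planted changes, and the outcome is not reported here. Members and gene lists were chosen with earlier results of these data known. Values per line were planned for CRBN, IKZF1, IKZF3 and called probe-sets with a difference of at least 1; IKZF1 227346_at, 205038_at, 220704_at and 227344_at are given by lowest, median and highest value instead. Up to 3 called genes a direction were named from each list, and the 3 most similar genes per member.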

Additional observations from a re-analysis of the deposited data

How the results depend on the processing

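Under 8 alternatives (1 probe-set a gene, dim probe-sets left out, arrays centred on their medians, a trended and robust prior, KMS-12-PE left out, MC-116 and AMO-1 left out, serum as a covariate, and lines in RPMI with 10% serum) the count of called member probe-sets, 9 in the comparison of MM with DLBCL, lay between 1 and 10. With serum as a covariate it was 9. Without KMS-12-PE, the sister line of KMS-12-BM, it was 7, and the calls of IKZF1 205039_s_at (limma adjusted p = 0.0623) and 227344_at (0.0550) were lost. With 1 probe-set a gene it was 1, of 7 tested, and the whole array had 3483 calls. IKZF1 was then represented by 216901_s_at and CUL4A by 201424_s_at, neither of them called. Over the 6 MM and 9 DLBCL lines in RPMI with 10% serum the count was 2 (IKZF1 1565817_at and CUL4A 227757_at) with 2642 calls over the array, from fewer lines. The 7 lost calls kept differences from -0.94 to -2.98 (limma adjusted p from 0.0585 to 0.216). In those lines the difference of IKZF3 227030_at was 0.14 (SE 0.62, limma adjusted p = 0.929), so a change of sign was not shown. The other IKZF3 probe-sets kept differences below 0 under the alternatives run for them. Leaving out each line in turn gave 6 to 10 called members and 5499 to 6442 calls over the array, with the fewest members without KMM-1, MOLP-8 or RPMI-8226, and a DDB1 difference from -0.0756 to 0.0246, which was above 0 in 9 of 26 cases. For C in DLBCL lines the count of members at an unadjusted p under 0.05 was 2 with 1 probe-set a gene, 3 with both diseases in 1 fit with a disease term, and 4 to 17 with each line left out. The same counts with each line left out were 0 to 11 for H in DLBCL lines (11 without FARAGE, 4 without OCI-Ly7, RIVA or SU-DHL-5), 0 to 2 for O in MM and in DLBCL lines and 1 to 2 for C in MM lines. For H in DLBCL lines the count fell below the 2 of the main fit in 9 of 14 cases and rose in 4. Adjusted calls of members on AUC0 remained at 0 under every alternative run, in limma. No paired analysis was possible because the 2 groups are different cell lines and the labels pair none of them.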
